A study of Homo sapiens with 15 samples.

Results

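DU145 cells that had received a miR-452 mimic were compared with untransfected DU145 cells. DU145 is a prostate cancer line that the labels trace to a brain metastasis. The arrays were taken by their titles: 2 arrays of cells 48 h after transfection with 20 nM miR-452 mimic (letters a and c) and 2 arrays of untransfected cells (letters b and c), which makes 4 of the 15 arrays of the series. A further DU145 array (letter b), from cells given a scrambled mimic at the same dose, served to mark changes that transfection alone could give, and 2 DU145 miR-224 mimic arrays (a and c) entered the same fit. The 8 other arrays are of PC3, a second prostate cancer line, of which the 2 miR-452 and the 2 untransfected arrays are used below. All cells grew in RPMI 1640 with 10% serum, mimics were delivered with Lipofectamine 2000 in suspension, and the medium was changed after 6 h. The untransfected cells are therefore a reference that lacks both the lipid and the small RNA. A second DU145 scrambled array was set aside by the submitters for poor performance, so the scrambled control rests on 1 array. Nothing in the labels tells separate cultures from repeats of 1 culture, so the p-values reflect array-to-array spread that may be technical.

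MicroRNAs are short RNAs that sit in Argonaute proteins and pair, mainly through their seed, with sites in messenger RNAs, which are then translated less and often decay faster. A mimic is a synthetic duplex that loads the mature strand into Argonaute. miR-452 and miR-224 lie in an intron of GABRE, which encodes a GABA-A receptor subunit, and the series concerns the methylation of that locus in prostate cancer. The labels do not name the arm of the miR-452 mimic, so both arms are shown. Sequences are from RefSeq on GRCh38.p14, 5′ to 3′, with the seed (bases 2 to 8) in capitals.
hsa-miR-452-5p: aACUGUUUgcagaggaaacuga
hsa-miR-452-3p: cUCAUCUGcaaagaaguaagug
hsa-miR-224-5p: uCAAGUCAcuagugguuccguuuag
hsa-miR-224-3p: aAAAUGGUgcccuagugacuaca
The arms come from the MIR452 hairpin on the minus strand of chrX:151959628-151959712, in which the arms are in capitals.
MIR452 hairpin: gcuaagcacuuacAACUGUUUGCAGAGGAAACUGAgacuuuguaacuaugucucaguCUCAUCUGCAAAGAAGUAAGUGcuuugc
None of the 4 seeds is shared between miR-452 and miR-224. Among RefSeq's mature sequences, 2 other microRNAs carry the seed of miR-452-5p, and they are shown because a pairing by seed alone would not tell them apart.
hsa-miR-4676-3p: cACUGUUUcaccacuggcucuu
hsa-miR-892c-3p: cACUGUUUccuuucugagugga

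Values are log2 levels. It is not stated whether a constant was added before the logarithm, which would understate changes at low levels. Changes are differences of log2 levels, given ± SE of the limma fit, and p-values were adjusted by Benjamini-Hochberg over 18377 genes. A gene passed at an adjusted p under 0.05. In untransfected DU145 cells the epithelial markers KRT8 (12.11), KRT18 (11.22), KRT19 (10.42), EPCAM (9.04) and CDH1 (8.93) lay above the median gene (6.94). Of the 13 measured markers of luminal, fibroblast, leukocyte and endothelial cells, none exceeded that median, and among the neuroendocrine markers only INSM1 did, at 7.63. The replicate arrays were not equally alike: the miR-452 arrays a and c correlated across genes with r = 0.9911 and differed with an SD of 0.211, against r = 0.9978 and an SD of 0.103 for the untransfected arrays. Array a lay farther from the untransfected mean than array c, with a root mean square change of 0.373 against 0.233. The spread of levels within an array was narrower after transfection. The lower and upper quartiles were 6.09 and 7.93 in miR-452 array a, 5.96 and 8.06 in array c, 6.02 and 8.05 in the scrambled array, and 5.87 and 8.24 or 8.23 in both untransfected arrays.

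Between miR-452 and untransfected cells 5178 genes passed, 28.2% of those tested. Of these, 1528 were higher with miR-452 (8.31% of all genes) and 3650 were lower (19.9%). Most changes were small: 5 genes rose and 39 fell by more than 2-fold. The 5 were REXO1L1P, SPDYE7P, LOC441081, OR7E85BP and ROCK1P1, of which the first 4 were named after their values were seen. REXO1L1P belongs to a family of near-identical copies, so its signal may be shared. It had 10.85 and 10.22 in the miR-452 arrays, against 9.57 in the scrambled array and 8.79 and 8.75 in untransfected cells. The counts changed with the arrays used: they fell without miR-452 array a or without either untransfected array, and rose without miR-452 array c. Leaving out an array also changed the estimate of spread, since a group left with a single array adds nothing to it. Such counts, here and below, therefore do not show what the left-out array alone carried. The direction varied with level. In the lowest quintile of mean level 8.1% of the genes were higher and 1.9% lower, and in the highest 1.5% were higher and 31.9% lower. The scrambled array followed the same course, with medians of 0.10, 0.17, 0.04, -0.16 and -0.16 from the lowest to the highest quintile, while those of miR-452 were 0.12, 0.16, -0.02, -0.22 and -0.19. Both sets of medians are taken against the same untransfected arrays.

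**Figure D1:**
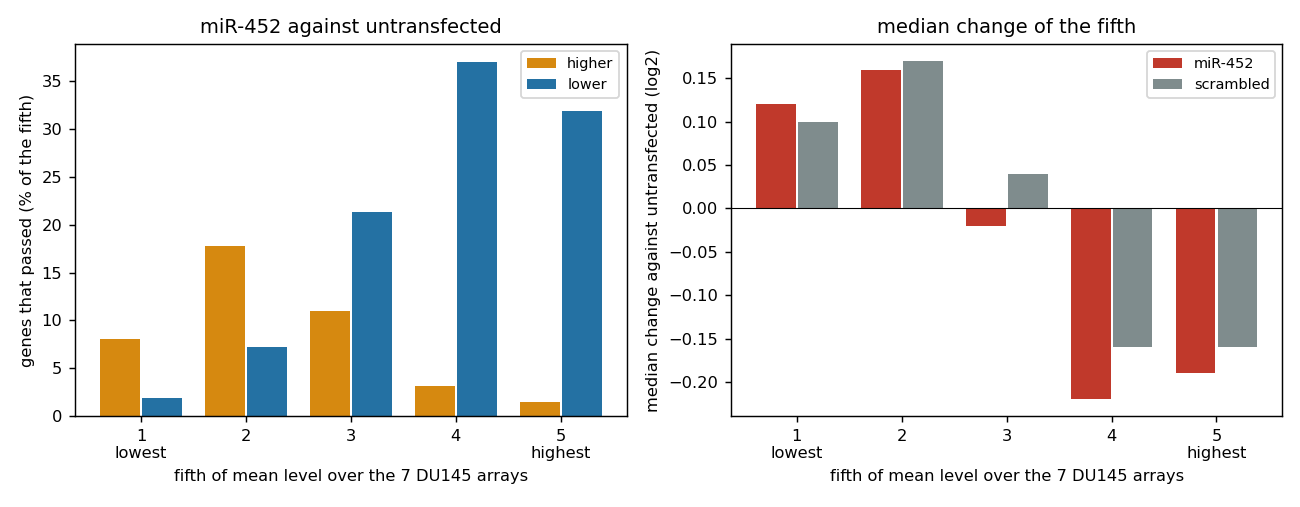
Left, share of the genes in each quintile of mean level that passed as higher (orange) or lower (blue) with miR-452 than in untransfected DU145 cells. Right, median log2 change of each quintile for miR-452 (red, 2 arrays) and for the scrambled mimic (grey, 1 array), both against the same 2 untransfected arrays: both are above 0 in the lowest 2 quintiles and below 0 in the highest 2.

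Rises without falls were seen in the olfactory receptor and keratin-associated protein gene families. Of 339 olfactory receptor genes, odorant receptors of the nasal epithelium, 131 were higher and 0 lower, with a median change of 0.29 for miR-452 and 0.21 for the scrambled array. Of 67 keratin-associated protein genes, which encode hair matrix proteins, 32 were higher and 0 lower, with medians of 0.38 and 0.37. Over all genes the medians were -0.02 for miR-452 and 0.03 for the scrambled array. Neither family had a member that passed against the scrambled array. Both families were picked after the data were seen. After a further quantile normalization 30 olfactory receptor genes (median 0.16) and 22 keratin-associated genes (median 0.35) were higher. Without miR-452 array c the counts were 183 and 49, and without array a 28 and 14. Without untransfected array b or c, 19 and 14 olfactory receptor genes and 5 and 6 keratin-associated genes were.

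The scrambled array was used to sort the calls. A call is marked where the scrambled array had moved the same way from untransfected cells by at least 0.5 of the miR-452 change. Of the 1528 genes that were higher, 1269 (83.0%) were marked, and of the 3650 that were lower, 2398 (65.7%). In 45 of the higher and 344 of the lower genes the scrambled array lay on the other side of the untransfected mean. The scrambled array itself differed from untransfected cells in 2172 genes (11.8%), 478 higher (2.6%) and 1694 lower (9.22%), and miR-452 differed from the scrambled array in 386 (2.1%), 106 higher (0.577%) and 280 lower (1.52%). A change was called beyond control where it was unmarked, both miR-452 arrays lay on the same side of all 3 control arrays, and the gene also passed against the scrambled array. That left 14 rises and 221 falls. Having 1 array, the scrambled group was assumed to vary as the other DU145 groups do.

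**Figure D2:**
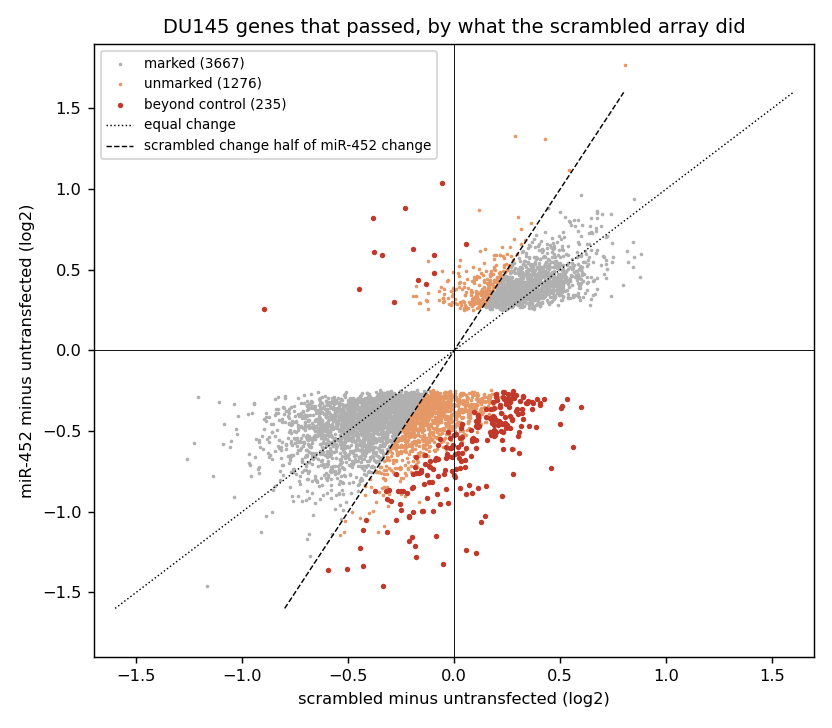
Each point is 1 of the 5178 genes that passed between miR-452 and untransfected DU145 cells, with the miR-452 change (vertical, log2) against the scrambled change (horizontal, log2); both use the same 2 untransfected arrays. Grey points are marked (the scrambled array moved at least 0.5 times as far the same way), orange points are unmarked, and red points are the genes beyond control, 14 rises and 221 falls.

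The 221 falls beyond control were of well expressed genes. Their median level in untransfected cells was 8.75, against 6.94 for all genes, and 127 of them were in the highest quintile and 79 in the next. Their median change was -0.55, from -1.46 to -0.25, while the scrambled array had a median of 0.10 for the same genes. The scrambled median is partly set by the definition, which leaves out genes that the scrambled array also lowered far. Array a showed the larger fall in 184 of them and array c in 37. Over all 221 the median change was -0.61 in array a and -0.52 in array c. These counts were also sensitive to single arrays: without miR-452 array c 854 falls met the definition, without array a 212, and without untransfected array b or c 49 and 53. Of the 221, 175 still passed against untransfected cells without miR-452 array a, and 111 and 117 without untransfected array b or c.

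TMEM184C, a transmembrane protein gene, had the largest fall among the genes beyond control. Its level was 7.19 and 7.36 with miR-452, against 8.40 in the scrambled array and 8.75 and 8.72 in untransfected cells, a change of -1.46 ± 0.096 (adjusted p = 0.000464). MYBL1, a transcription factor of the MYB family, was at 9.40 and 9.71 with miR-452, against 10.32 with the scrambled mimic and 10.94 and 10.89 untransfected (-1.36 ± 0.11, adjusted p = 0.000569). In both genes the scrambled array lay between the miR-452 and the untransfected arrays. That both miR-452 arrays lay below all controls is required by the definition of beyond control.

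For a second set the scrambled array stood at the untransfected level. MCUB, a subunit of the mitochondrial calcium uniporter that dampens its activity, had 6.87 and 7.24 with miR-452, against 8.33 scrambled and 8.33 and 8.42 untransfected (-1.32 ± 0.12). C12orf75 had 8.94 and 9.15, against 10.41 scrambled and 10.32 and 10.29 untransfected (-1.26 ± 0.096). NCS1, a neuronal calcium sensor, had 7.68 and 7.95, against 9.10 scrambled and 9.04 and 9.06 untransfected (-1.23 ± 0.10). Their scrambled changes were -0.05, 0.10 and 0.06.

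COQ10B, which encodes a coenzyme Q binding protein of mitochondria, fell by 1.35 ± 0.082 on the log2 scale and SMIM14 by 1.33 ± 0.11. DCAKD, a gene named for a dephospho-CoA kinase domain, fell by 1.28 ± 0.11. IGF2BP2, an RNA binding protein that stabilises target messenger RNAs, was at 8.0 and 8.08 with miR-452, against 8.82 scrambled and 9.22 and 9.31 untransfected (-1.22 ± 0.085, adjusted p = 0.000519). The 10 largest falls beyond control lay between -1.21 and -1.46 as deposited and between -1.0 and -1.25 after a further quantile normalization, and each of the 10 passed with any one of the miR-452 or untransfected arrays left out.

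PRKAR2B, a regulatory subunit of the cAMP-dependent kinase PKA, completed the 10: 6.83 and 6.81 with miR-452, against 7.85 scrambled and 8.02 and 8.03 untransfected (-1.21 ± 0.092). PRKACA, the main catalytic subunit of the same kinase, was noticed after the values were seen, with 7.98 and 8.09 with miR-452, against 8.85 scrambled and 9.05 and 9.07 untransfected (-1.03 ± 0.089, adjusted p = 0.000745). All miR-452 values of both subunits lay below all control values. For PRKAR2B this is required by the definition of beyond control, and PRKACA was picked with its values known. The separation is therefore not independent evidence for either gene.

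**Figure D3:**
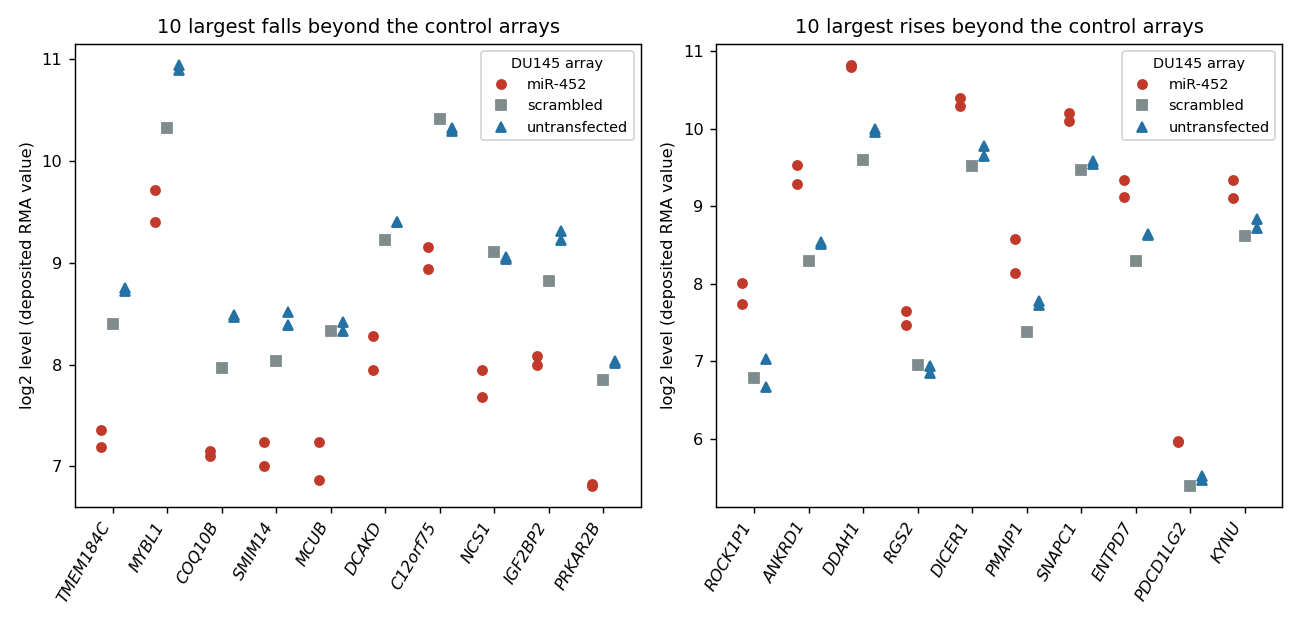
Log2 level of the 10 largest falls (left) and the 10 largest rises (right) beyond control in each miR-452 array (red circles), the scrambled array (grey squares) and each untransfected array (blue triangles) of DU145. In every gene both red circles lie on the same side of the 3 control points, as the definition requires.

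Other falls beyond control included signalling, lipid and chromatin genes, of which NT5E, ASAH1, CPT1A, KDM1B, CHUK and ATG5 were picked after their values were seen. GNA12, the alpha subunit of a heterotrimeric G protein, fell by 1.15 ± 0.083 on the log2 scale. EGR1, an immediate early transcription factor, was at 8.76 and 8.68 with miR-452, against 9.40 scrambled and 9.77 and 9.89 untransfected (-1.11 ± 0.088). TIMP2, an inhibitor of matrix metalloproteinases, was at 8.77 and 9.13, against 9.76 scrambled and 10.10 and 10.05 untransfected (-1.13 ± 0.12). NT5E, the ectoenzyme that makes adenosine from AMP (CD73), was at 8.66 and 8.97, against 9.99 scrambled and 9.88 and 9.81 untransfected (-1.03 ± 0.11). Each of these had its miR-452 values clear of the controls, as the definition of beyond control requires. Also lower were ASAH1, the lysosomal acid ceramidase (-1.0 ± 0.11), CPT1A, which brings fatty acids into mitochondria (-0.89 ± 0.11), KDM1B, a histone demethylase (-0.95 ± 0.085), CHUK, the IKK-alpha kinase (-0.87 ± 0.091), and ATG5, an autophagy factor (-0.93 ± 0.11). The smallest of the 221 falls were NINJ1 (-0.25 ± 0.083) and DTYMK (-0.26 ± 0.083), each of which lost its call without miR-452 array a or without either untransfected array.

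Of the 14 rises beyond control, ROCK1P1, a pseudogene of the kinase ROCK1, was largest: 8.01 and 7.74 with miR-452, against 6.78 scrambled and 7.02 and 6.66 untransfected (1.03 ± 0.19, adjusted p = 0.00729). It did not pass without miR-452 array a, and its probes may also read the parent gene. ANKRD1, a nuclear ankyrin repeat protein and a commonly used YAP target, had 9.28 and 9.53, against 8.29 scrambled and 8.51 and 8.53 untransfected (0.88 ± 0.10, adjusted p = 0.00161). DDAH1, which breaks down methylated arginines that inhibit nitric oxide synthase, had 10.79 and 10.82, against 9.60 scrambled and 10.00 and 9.96 untransfected (0.82 ± 0.082, adjusted p = 0.00124). In ANKRD1 and DDAH1 the scrambled array lay below the untransfected arrays, on the other side from miR-452.

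DICER1, the nuclease that cuts microRNA precursors, rose: 10.29 and 10.39 with miR-452, against 9.52 scrambled and 9.77 and 9.65 untransfected (0.63 ± 0.091, adjusted p = 0.00296). RGS2, which switches off G protein signalling, had 7.47 and 7.64, against 6.95 scrambled and 6.84 and 6.94 untransfected (0.66 ± 0.093). SNAPC1, a subunit of a complex that binds promoters of small nuclear RNA genes, rose by 0.59 ± 0.088, as did ENTPD7, a nucleotide-hydrolysing enzyme, by 0.59 ± 0.096. The calls of DICER1, RGS2, SNAPC1, ENTPD7, ANKRD1 and DDAH1 held with any one of the miR-452 or untransfected arrays left out.

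A further 3 rises, of PMAIP1 (NOXA, a pro-death BCL2 family member; 0.61 ± 0.13), PDCD1LG2 (the checkpoint ligand PD-L2; 0.48 ± 0.082) and KYNU (kynureninase of tryptophan breakdown; 0.43 ± 0.10), did not pass without untransfected array b or without array c. The same was true of CDK6 (0.38 ± 0.096), a G1 kinase, SYNE1 (0.41 ± 0.090), a nuclear envelope protein, MAK16 (0.30 ± 0.099), a ribosome assembly factor, and SLC7A11 (0.26 ± 0.083), the cystine transporter. MAK16 also did not pass without miR-452 array c, and SLC7A11 without array a. SLC7A11 had 9.79 and 9.84 with miR-452, against 8.66 scrambled and 9.56 and 9.55 untransfected, so the scrambled array, and not miR-452, stood far from the rest.

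The largest marked changes were of similar size but were met by the scrambled array. LIN7C, a scaffold protein of cell junctions, had 7.33 and 7.70 with miR-452, against 7.81 scrambled and 9.0 and 8.96 untransfected. Its change against untransfected cells was -1.46 ± 0.12 and against the scrambled array -0.30 (adjusted p = 0.377). MOB1A, an activator of the LATS kinases in the Hippo pathway, fell by 1.27 ± 0.16, ZMAT1 by 1.17 ± 0.12, ADD3, a membrane skeleton protein, by 1.14 ± 0.089 and DOCK11, an exchange factor for CDC42, by 1.14 ± 0.093. ADD3 also passed against the scrambled array (-0.57, adjusted p = 0.0337), with both miR-452 values (6.71 and 6.77) below the scrambled value of 7.31. Among marked rises CLDN1, a tight junction claudin, had 11.29 and 11.39, against 10.90 scrambled and 10.47 and 10.44 untransfected (0.88 ± 0.091). Its change against the scrambled array was 0.44 (adjusted p = 0.0773). The other large marked rises were in IGKC, an immunoglobulin light chain (0.96 ± 0.17), KRTAP4-4 (0.94 ± 0.18), POM121L9P (0.89 ± 0.089) and KRTAP5-3 (0.86 ± 0.19), the last of which did not pass without untransfected array c.

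Gene lists are given by the count of members that passed, beside the 8.31% of all genes that were higher and the 19.9% that were lower. In mitosis genes 25 of 30 fell and 0 rose, with a median of -0.43, and 22 of the 25 falls were marked: the scrambled array had a median of -0.39. BUB1, a spindle checkpoint kinase, had 9.0 and 9.28 with miR-452, against 9.62 scrambled and 9.87 and 9.89 untransfected (-0.74 ± 0.11, adjusted p = 0.00316). CENPF, a kinetochore protein, fell by 0.64 ± 0.093 and KIF20A, a kinesin of cytokinesis, by 0.67 ± 0.10. No mitosis gene passed against the scrambled array. The count was 16 without miR-452 array a, 6 and 3 without untransfected array b or c, and 7 after a further quantile normalization. In bulk RNA, fewer cycling cells and less of these messages per cell cannot be told apart. DNA replication and G1/S genes gave 15 falls and 1 rise among 31, with a median of -0.26 and a scrambled median of -0.19; 4 fell without miR-452 array a, 2 and 0 without untransfected array b or c, 3 after quantile normalization and 6 after centring each array on its median. GINS4, part of the replicative helicase, was at 7.03 and 7.09 with miR-452, against 7.26 scrambled and 7.57 and 7.61 untransfected (-0.53 ± 0.090), and did not pass without untransfected array c.

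Coat and cargo genes of the path from the endoplasmic reticulum to the Golgi (COPI, COPII and ARF genes) fell in 15 of 27, with 0 rises and a median of -0.31, against -0.15 for the scrambled array. Of the 15, 6 were marked and 4 were beyond control. SEC23A, the inner COPII coat, had 9.92 and 10.02 with miR-452, against 10.60 scrambled and 10.84 and 10.84 untransfected (-0.87 ± 0.091, adjusted p = 0.00126). ARF4, a small GTPase that recruits coats, had 9.79 and 9.94, against 10.58 scrambled and 10.67 and 10.59 untransfected (-0.77 ± 0.091). KDELR3, a receptor that returns escaped proteins to the endoplasmic reticulum, had 8.91 and 9.18, against 9.78 scrambled and 9.79 and 9.76 untransfected (-0.73 ± 0.11). SURF4, a cargo receptor, fell by 0.61 ± 0.086. For all 4 the scrambled change was between -0.24 and 0.01. ARL1, a Golgi GTPase outside the list, fell by 0.99 ± 0.11 and was picked after its value was seen. The list had 8 falls without miR-452 array a, 5 without either untransfected array, and 6 after quantile normalization. Of 25 RAB genes, which direct vesicles, 9 fell and 8 of the 9 were marked; 18 fell without miR-452 array c, 4 without array a, 2 and 0 without untransfected array b or c, and 0 after quantile normalization.

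Sterol and fatty acid synthesis genes fell in 12 of 20, with 0 rises and a median of -0.32, against -0.15 for the scrambled array. FDPS, which makes farnesyl diphosphate, had 7.78 and 7.96 with miR-452, against 8.56 scrambled and 8.74 and 8.65 untransfected (-0.83 ± 0.093, adjusted p = 0.00161), and was beyond control. ELOVL6, a fatty acid elongase, fell by 0.64 ± 0.10 and was marked, with a scrambled change of -0.58. SREBF2, the transcription factor that drives sterol genes, had 8.82 and 8.91 with miR-452, against 9.16 scrambled and 9.26 and 9.34 untransfected (-0.44 ± 0.085), and did not pass without untransfected array b or without array c. The list had 5 falls without miR-452 array a, 2 without either untransfected array, and 4 after quantile normalization. Hypoxia and glycolysis genes fell in 12 of 22, with 0 rises, a median of -0.28 and a scrambled median of -0.07, and only 3 of the 12 were marked. ENO2, an enolase, had 7.47 and 7.54, against 7.93 scrambled and 8.15 and 8.11 untransfected (-0.63 ± 0.084, adjusted p = 0.00229). BNIP3, a hypoxia-induced mitophagy receptor, had 10.46 and 10.60, against 11.00 scrambled and 11.00 and 11.04 untransfected (-0.49 ± 0.089), and did not pass without untransfected array b or without array c. No member passed against the scrambled array. The list had 7 falls without miR-452 array a, 3 and 2 without untransfected array b or c, and 5 after quantile normalization.

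**Figure D4:**
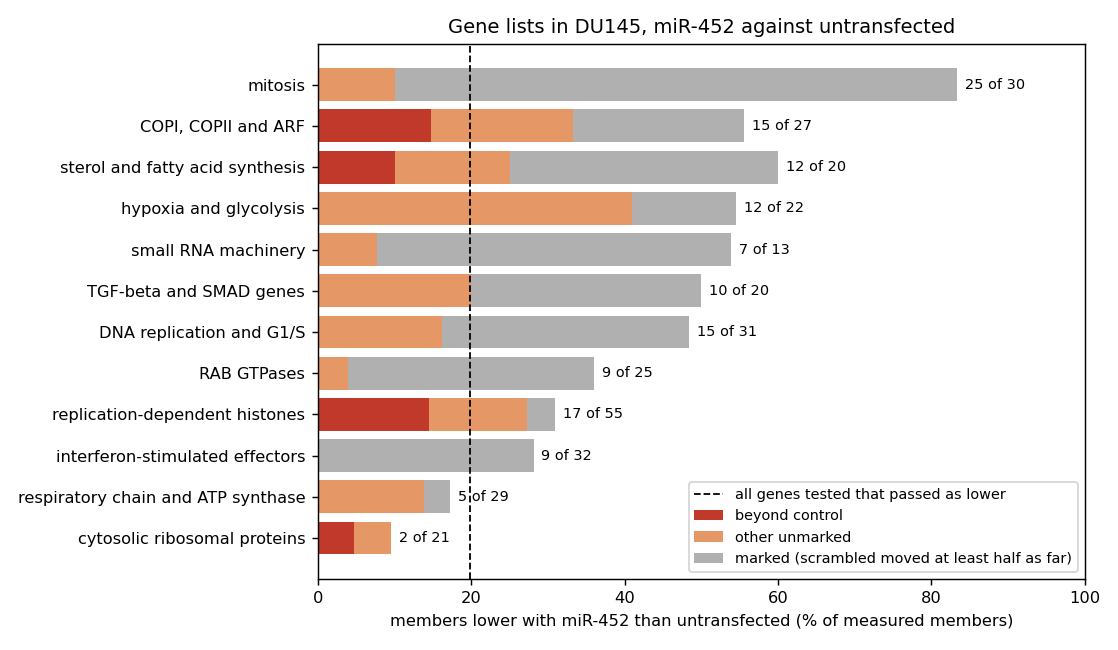
Share of the measured members of 12 gene lists that were lower with miR-452 than in untransfected DU145 cells, split into members beyond control (red), other unmarked members (orange) and members marked by the scrambled array (grey), with the counts beside the bars. The dashed line is the share of all genes tested that were lower, 19.9%; the bar of mitosis genes is mostly grey, and those of COPI, COPII and ARF genes, sterol genes, histones and ribosomal proteins hold the red parts.

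The machinery that microRNAs use split. Of 13 small RNA genes, 7 fell and DICER1 rose, with a median of -0.32 and a scrambled median of -0.31. AGO4 had 6.42 and 6.35 with miR-452, against 6.45 scrambled and 6.93 and 6.87 untransfected (-0.52 ± 0.084). AGO2, the Argonaute that can cut its targets, had 7.83 and 8.19, against 8.08 scrambled and 8.50 and 8.53 untransfected (-0.50 ± 0.12). Neither passed without untransfected array b, nor AGO2 without array c. Of the 7 falls 6 were marked. Without miR-452 array a 3 fell, without untransfected array b or c 0 and 1, after quantile normalization 1, and after centring each array on its median 3, while DICER1 rose in all of these.

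Replication-dependent histones, which package newly made DNA, fell in 17 of 55 and rose in 4, and 8 of the falls were beyond control. Their median was -0.18, while that of the scrambled array was 0.07. H2BC14 had 8.43 and 8.63 with miR-452, against 9.18 scrambled and 9.39 and 9.37 untransfected (-0.85 ± 0.10, adjusted p = 0.00185), and H3C11 had 10.10 and 10.32, against 10.78 scrambled and 10.89 and 10.90 untransfected (-0.69 ± 0.098). The other 6, H2AC4, H2AC11, H2AC13, H2BC13, H3C1 and H4C3, fell by less, and in each of them the scrambled array was above both untransfected arrays. H2AC4 for example had 7.0 and 7.08, against 7.90 scrambled and 7.34 and 7.43 untransfected (-0.34 ± 0.085). A pass against the scrambled array is part of the definition of beyond control, which favours falling genes where that array is high. None of these 6 passed without untransfected array b or without array c, and H2AC4, H2AC11, H2AC13 and H2BC13 did not without miR-452 array a. H2BC12 rose (0.49 ± 0.11), but not without untransfected array b. Histone genes are near-identical in places, so probes may read more than 1 of them. The list had 8 falls without miR-452 array a, 23 falls and 8 rises without array c, 4 and 3 falls without untransfected array b or c, and 7 after quantile normalization.

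TGF-beta and SMAD genes fell in 10 of 20 and rose in 1. SMAD2, a receptor-activated SMAD, had 7.91 and 8.20 with miR-452, against 8.39 scrambled and 8.93 and 8.92 untransfected (-0.87 ± 0.10), and its partner SMAD4 had 8.51 and 8.68, against 8.66 scrambled and 9.20 and 9.23 untransfected (-0.62 ± 0.090). Both were marked. TGFB1, the ligand, fell by 0.60 ± 0.093 and was not marked, with a scrambled change of -0.23. The list had 7 falls without miR-452 array a, 4 and 3 without untransfected array b or c, and 4 after quantile normalization. Among matrix proteases, integrins and inhibitors 7 of 26 fell and 2 rose: TIMP2 and the sheddase ADAM17 (-0.63 ± 0.096) fell, and the collagen receptor subunit ITGA2 had 9.20 and 9.58 with miR-452, against 8.90 scrambled and 8.80 and 8.75 untransfected (0.62 ± 0.12). ITGA2 did not pass without untransfected array c. The list had 12 falls and 5 rises without miR-452 array c, 3 and 1 without untransfected array b, and 2 and 0 without array c. After quantile normalization 4 fell and 3 rose. Mesenchymal genes rose in 5 and fell in 5 of 15. All 5 rises and 3 of the falls were marked, and the median was 0.16, against 0.15 for the scrambled array. TAGLN, an actin binding protein, was among the falls, with 6.79 and 6.86, against 7.48 scrambled and 7.51 and 7.46 untransfected (-0.66 ± 0.084). The mesenchymal counts were 3 falls and 0 rises without miR-452 array a, 5 and 8 without array c, 1 and 0 without either untransfected array, and 3 and 2 after quantile normalization.

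Shares nearer to the background were seen elsewhere. Respiratory chain and ATP synthase genes fell in 5 of 29, and cytosolic ribosomal proteins in 2 of 21, with 0 rises in either. Without miR-452 array c these were 16 and 5, and without array a or either untransfected array, or after quantile normalization, 0 and 0. Small nucleolar and Cajal body RNAs fell in 32 and rose in 8 of 192, and 25 of the falls and 5 of the rises were marked. SNORA21, a guide RNA for pseudouridylation, had 7.63 and 7.77 with miR-452, against 8.88 scrambled and 8.42 and 8.44 untransfected (-0.73 ± 0.087). The small RNA counts were 14 falls and 5 rises without miR-452 array a, 63 and 18 without array c, and 2 or 5 falls and 0 rises without untransfected array b or c. Of 26 ATF4 and unfolded protein response genes 5 fell and 1 rose, with 3 falls without miR-452 array a and 2 without either untransfected array. After quantile normalization 3 fell and 5 rose, and the median was 0.03, against -0.12 as deposited. PDIA4, a chaperone of the endoplasmic reticulum, had 8.6 and 8.76, against 9.28 scrambled and 9.44 and 9.36 untransfected (-0.72 ± 0.091). In ERK feedback genes 3 of 18 fell and 1 rose: DUSP5, a phosphatase that inactivates ERK, had 9.58 and 9.80, against 9.25 scrambled and 8.91 and 8.96 untransfected (0.75 ± 0.096), and ETV5 fell by 0.66 ± 0.10 with a scrambled change of -0.77. Without miR-452 array c 6 of these 18 fell and 2 rose, without array a 2 fell, and without either untransfected array 1 fell. After quantile normalization 1 fell and 1 rose, with a median of 0.04, against -0.07 as deposited. Markers of leukocytes (2 of 10), fibroblasts (2 of 9) and endothelium (1 of 7) that passed were all higher and marked. The medians of these 3 lists were 0.17, 0.21 and 0.19 for miR-452 and 0.16, 0.23 and 0.20 for the scrambled array, and without miR-452 array a or either untransfected array 0 of their members passed. Without miR-452 array c 5, 5 and 4 were higher, and after quantile normalization 1, 1 and 0.

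Reported miR-452 targets were listed from general knowledge, and 12 of 13 were measured. CDKN1B, the cell cycle inhibitor p27, had 7.55 and 7.71 with miR-452, against 7.74 scrambled and 8.15 and 8.17 untransfected (-0.53 ± 0.088, adjusted p = 0.0048). WEE1, a kinase that holds back entry into mitosis, had 7.52 and 7.79, against 7.58 scrambled and 8.09 and 8.14 untransfected (-0.45 ± 0.10), and the receptor IGF1R fell by 0.35 ± 0.096. All 3 were marked. DUSP6, an ERK phosphatase, had 6.60 and 6.84, against 7.27 scrambled and 7.18 and 7.24 untransfected (-0.49 ± 0.11, adjusted p = 0.0115); it was not marked, and its change against the scrambled array was -0.55 (adjusted p = 0.0611). CPEB3, a translational regulator, rose by 0.25 ± 0.083. LEF1 (0.27), TCF7L2 (-0.21), SOX7 (0.00), RAB11A (-0.19), VEGFA (-0.04), EPB41L3 (0.17) and WNT5A (-0.09) did not pass. Without untransfected array b 1 of the 12 fell and without array c 0, and without miR-452 array a 3 fell. Without miR-452 array c 5 fell and 2 rose, and after quantile normalization 1 fell and 0 rose.

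At the host locus, GABRE had 5.63 and 5.47 with miR-452, against 5.47 scrambled and 5.33 and 5.39 untransfected, at the low end of the scale, where changes may be understated (0.19 ± 0.094, adjusted p = 0.15). The neighbouring receptor genes GABRA3 (0.14) and GABRQ (-0.02) and the sterol gene NSDHL (-0.30, adjusted p = 0.0558) did not pass. CETN2, a centriole protein, had 8.45 and 8.53 with miR-452, against 9.21 scrambled and 9.01 and 9.02 untransfected (-0.53 ± 0.089), beyond control; it did not pass without untransfected array b or without array c. These messages do not report the delivered mimic, so the level of miR-452 itself is not given by these values.

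Interferon-stimulated genes, which encode antiviral effectors induced through STAT and IRF factors, and sensors of double-stranded RNA were examined because a transfected duplex can be sensed. Of 32 effectors 9 fell and 0 rose with miR-452, and all 9 were marked. IFIT1, which binds foreign RNA ends, had 6.95 and 7.13 with miR-452, against 6.91 scrambled and 7.90 and 8.0 untransfected (-0.91 ± 0.097, adjusted p = 0.00141). IFIT3 had 6.60 and 6.70, against 6.56 scrambled and 7.43 and 7.24 untransfected (-0.68 ± 0.095). IFIT2 fell by 0.64 ± 0.088 and HERC5, an ISG15 ligase, by 0.81 ± 0.10. In the 3 IFIT genes the scrambled array was below both miR-452 arrays. Of 13 measured RNA sensor genes 3 fell (23.1%, against 19.9% of all genes) and 0 rose, and all 3 were marked. Their list had a median of -0.11, against -0.17 for the scrambled array. The sensor RIGI had 7.09 and 7.30, against 7.12 scrambled and 7.99 and 7.89 untransfected (-0.74 ± 0.097). ADAR, which edits double-stranded RNA, fell by 0.58 ± 0.095 with a scrambled change of -0.71. The median of all 32 effectors was -0.08, against 0.01 after a further quantile normalization, where 6 fell. Without miR-452 array a 5 fell, and without untransfected array b or c 4 and 5. Without miR-452 array c 10 fell and 6 rose. Against the scrambled array 1 effector passed, SAMD9, an antiviral factor, with 7.21 and 7.49 with miR-452, against 6.64 scrambled and 7.68 and 7.69 untransfected (0.71 over the scrambled array, adjusted p = 0.0309).

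The promoters of IFIT1 and IFIT3, genes of chromosome 10 that both fell, are shown. IFIT1B, an IFIT gene outside the effector list, was higher with miR-452 (0.27) and unmarked. Both promoters hold the core of the interferon-stimulated response element, which was searched as GAAA, any 2 bases and GAAA on both strands. Matches are in capitals (as their reverse complement), with no overlap between matches, in the 300-base windows that RefSeq's table gives around each gene's start on GRCh38.p14, plus strand.
IFIT1 at chr10:89392373-89392672: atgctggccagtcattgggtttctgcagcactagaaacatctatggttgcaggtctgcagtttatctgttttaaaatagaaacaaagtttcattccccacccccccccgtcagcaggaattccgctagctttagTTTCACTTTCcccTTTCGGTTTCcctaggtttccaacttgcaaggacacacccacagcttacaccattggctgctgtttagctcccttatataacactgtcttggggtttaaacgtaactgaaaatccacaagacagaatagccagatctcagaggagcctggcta
IFIT3 at chr10:89327747-89328046: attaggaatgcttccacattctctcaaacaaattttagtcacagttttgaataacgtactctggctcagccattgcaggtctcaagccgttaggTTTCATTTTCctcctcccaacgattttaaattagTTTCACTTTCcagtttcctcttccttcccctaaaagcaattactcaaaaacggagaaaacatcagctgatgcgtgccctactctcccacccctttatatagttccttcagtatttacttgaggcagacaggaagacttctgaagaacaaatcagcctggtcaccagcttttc
Of the 32 effectors 26 had a promoter in the RefSeq table, and 18 of these (69.2%) held a match, against 431 of 14210 promoters of measured genes (3.0%). A match of letters is a description and not a shown binding site.

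The same genes behaved otherwise in PC3. Between miR-452 and untransfected PC3 cells 22.2% of genes passed, 8.12% higher and 14.1% lower, and of the 32 effectors 25 rose and 0 fell, with a median of 0.67. The change was lower in DU145 than in PC3 in 22 of the 32 by the test of the difference itself, which 2.88% of all genes passed (0.68% higher and 2.2% lower in DU145). Arrays of the lines were normalized separately, so changes and not levels are set across them. For IFIT1 the PC3 values were 8.63 and 8.50 with miR-452, against 7.70 and 7.60 untransfected, and the DU145 change less the PC3 change was -1.82 ± 0.13 (adjusted p = 1.08e-05). IFI44L had 10.46 and 10.22 in PC3, against 8.55 and 8.43 untransfected, while in DU145 it had 5.48 and 5.51 with miR-452, against 5.46 and 5.23 untransfected, also at the low end of its scale. MX1 changed by -0.09 in DU145 and 1.82 in PC3, OAS1 by 0.13 and 1.69, and IFITM1 by 0.05 and 1.61. The PC3 scrambled arrays are not set beside these values.

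**Figure D5:**
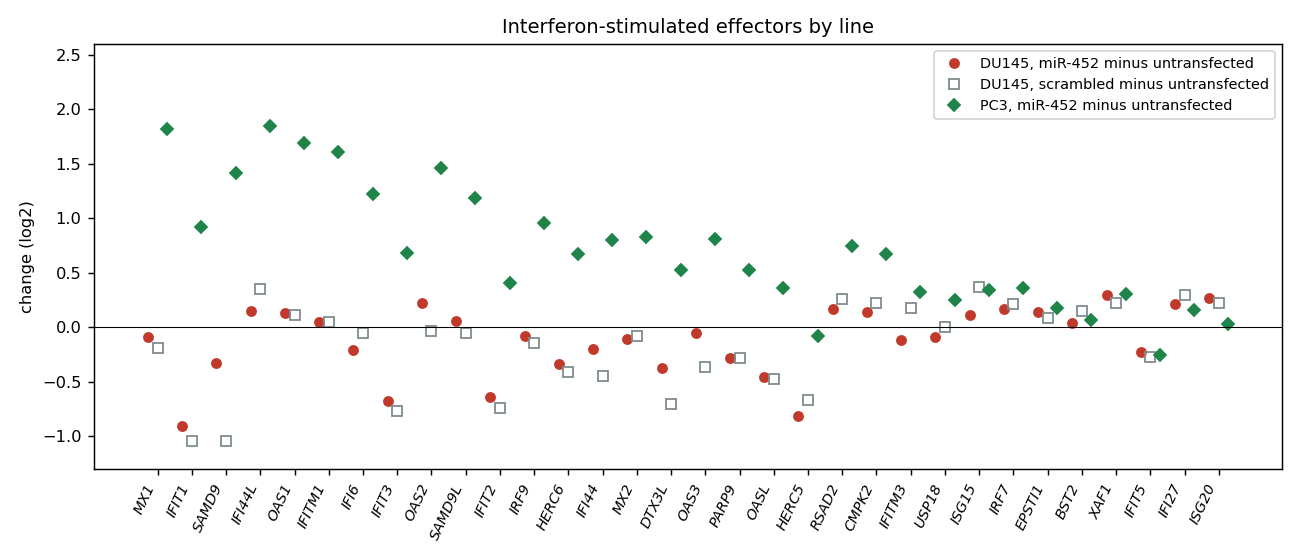
Log2 change of the 32 measured interferon-stimulated effectors for DU145 miR-452 (red circles), DU145 scrambled (grey squares) and PC3 miR-452 (green diamonds), each against the untransfected arrays of its line, ordered by the DU145 change less the PC3 change. Against untransfected cells 0 of 32 passed as higher in DU145 (6 without miR-452 array c) and 25 in PC3.

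The falls beyond control were shared with PC3 more often than not. Of the 221, 115 (52.0%) also fell in PC3, where 14.1% of all genes fell, 196 had a change below 0, and 2 rose. The marked falls of DU145 did so to a like share, 47.0%. Of the 14 rises 9 also rose in PC3 and 0 fell. COQ10B changed by -1.53 in PC3, SERINC1, a serine incorporator, by -1.5 (-1.18 in DU145), TMEM184C by -1.3, MCUB by -1.21, DCAKD by -1.17 and PRKACA by -1.13. DICER1 changed by 0.75 in PC3 and DDAH1 by 0.54. None of TMEM184C, COQ10B, MCUB, DCAKD, SERINC1, PRKACA, DICER1 and DDAH1 passed the test of a difference between the lines, which does not show that they changed alike. PRKAR2B did differ: its PC3 values were 5.30 and 5.26 with miR-452, against 5.27 and 5.28 untransfected, near the bottom of the scale (difference -1.21, adjusted p = 4.81e-05). EGR1 (-1.11 in DU145, 0.13 in PC3; adjusted p = 5.69e-05), PON3, a paraoxonase (-1.0 and 0.27), CD70, a TNF family ligand (-0.89 and 0.19), and PEG10, an imprinted retrotransposon-derived gene (-0.77 and 0.11), also differed between the lines.

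The miR-224 arrays gave a comparison in which cells of both groups had been transfected. miR-452 differed from miR-224 in 1086 genes (5.91%), 437 higher (2.38%) and 649 lower (3.53%). This count fell to 130 higher and 124 lower without miR-224 array c and to 176 and 148 without array a, and it was 568 and 1584 without miR-452 array c and 787 and 454 without array a. Without either untransfected array it was 266 and 346. Of the 221 falls beyond control 128 were also lower than with miR-224 and 2 were higher, and in 190 both miR-452 arrays lay below both miR-224 arrays. Of the 14 rises 10 were also higher than with miR-224. Both sets were chosen because the same 2 miR-452 arrays lay apart from the controls, so these counts are partly given by that choice. The share of all genes with arrays so separated from miR-224 was not counted. Against untransfected cells miR-224 lowered 61 of the 221 (15.5% of all genes were lower) and raised 2 of the 14 (5.44% of all genes were higher). DCAKD had 7.95 and 8.28 with miR-452, against 9.54 and 9.58 with miR-224 (-1.45, adjusted p = 0.000436), followed among the largest differences by MYBL1 (-1.34), IGF2BP2 (-1.3), GNA12 (-1.27) and TIMP2 (-1.25). Conversely FBXO27, an F-box protein, had 7.76 and 7.80 with miR-452 and 7.63 and 7.85 with miR-224, against 8.98 scrambled and 8.83 and 8.87 untransfected, so both mimics had it low.

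The genes that were highest with miR-452 over miR-224 were, apart from ANKRD1, genes that did not pass between miR-452 and untransfected cells. API5, an inhibitor of apoptosis, had 9.31 and 9.49 with miR-452, against 7.97 and 7.81 with miR-224 (1.51, adjusted p = 0.000222) and 9.35 and 9.47 untransfected. MTRR, methionine synthase reductase, had 9.94 and 10.06, against 8.53 and 8.53 with miR-224 and 9.94 and 9.86 untransfected. CYRIB (1.33) and NECAP1 (1.31) also passed over miR-224 and not over untransfected cells. ANKRD1 differed by 1.64 (adjusted p = 0.000222), with 9.28 and 9.53 with miR-452, against 7.79 and 7.75 with miR-224, and the untransfected arrays between them.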

How the data were processed

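The deposited values are log2 expression levels per array feature of Affymetrix Human Gene 1.0 ST arrays, made by the authors with RMA16 in GeneSpring GX 11.0, each line on its own, per the series' design text; the sources used here do not explain the name RMA16, nor whether a constant was added before the logarithm. Scanner intensities were not used. RNA was taken at 48 h and 100 ng was labelled, per the labels' protocols. Of 28869 features, 19310 had 1 gene symbol, 1752 several and 7807 none; those with 1 symbol were averaged per symbol, giving 18377 genes, with no filter on level. Array number, not depth, limits precision.

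The 7 DU145 arrays entered 1 limma 3.58.1 fit (R 4.3.3) of 4 groups, with 3 residual degrees of freedom; tests are two-sided. The lines were compared in a fit of both with 7. The fit was also run on simulated data with independent noise of equal spread in all groups. The groups here differed in spread, so that run does not test the calls. Named genes were the 10 largest rises and falls beyond control, the 5 largest marked and against miR-224 in each direction, up to 4 of smallest p per list, all measured host locus genes and reported targets, and up to 6 of smallest p between the lines. Members, lists and the naming rule were chosen with earlier results of these data known; the olfactory receptor and keratin-associated lists and SLC7A11, MAK16, CDK6, SYNE1, SERINC1, FBXO27, NT5E, PRKACA, ASAH1, PON3, CPT1A, CHUK, ATG5, CD70, PEG10, KDM1B, ARL1, DTYMK, NINJ1, REXO1L1P, SPDYE7P, LOC441081, OR7E85BP, H2AC4, H3C1, H4C3, H2BC13, H2AC11, H2AC13, H2BC21 and H2BC12 were chosen after their values were seen. Alternatives were other controls, normalizations, filters, fits and leaving out each array. The files used give no batch. The letters a to c were not used to pair the arrays in the main fit: miR-452 and untransfected arrays share only letter c. Deviations of equal letters in miR-452 and miR-224 correlated at -0.31, which does not tell whether equal letters share a batch.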

Additional observations from a re-analysis of the deposited data

Results flagged for a closer look

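By the test of the difference, the change between miR-452 and untransfected cells differed between DU145 and PC3 in 529 genes, 125 higher and 404 lower in DU145. Among them, 22 of the 32 interferon-stimulated effectors were lower in DU145. The DU145 change less the PC3 change was -1.82 for IFIT1, -1.7 for IFI44L, -1.36 for IFIT3 and -1.75 for SAMD9. It was 1.67 for RELN, which encodes the secreted protein reelin, and 1.97 for SHISA3. The untransfected cells of both lines had received neither lipid nor small RNA. In DU145 all 9 interferon-stimulated effectors that fell were marked, and the PC3 scrambled arrays were not set beside these values. Whether the lines differ in their response to transfection or to miR-452 was not tested.

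Features with no symbol or several also moved, outside the genes reported. Of 9559, 1125 were higher and 309 lower with miR-452 than in untransfected DU145 cells when fitted with all features. Fitted alone by limma, 0 passed, with 3114 at an unadjusted p under 0.05.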

How the results depend on the processing

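Counts are given as higher and lower with miR-452. Against untransfected cells (1528 and 3650) they were 106 and 280 with the scrambled array as control, 195 and 1371 with the mean of the controls, 888 and 1365 after quantile normalization, 48 and 397 with a replicate block, and 2369 higher with all 15 arrays. Leaving out single arrays gave 91 to 4000 and 707 to 5646. The share of higher calls was 29.5%, against 39.4% after quantile normalization and 45.9% after centring. Against the scrambled array (106 and 280) they were 277 and 692 with 15 arrays, 294 and 630 with trend and robust moderation, 2 and 2 with the replicate block, 174 higher with a filter on level, 356 higher after quantile normalization and 131 lower after centring. Leaving out single arrays gave 24 to 497 and 90 to 984. Against miR-224 (437 and 649) they were 703 higher after quantile normalization, 1071 lower with 15 arrays and 404 lower with the replicate block, and 130 to 787 and 124 to 1584 without single arrays. For the lines (125 and 404), leaving out single arrays gave 39 to 409 and 137 to 935. Marked genes (1269 and 2398) were 1999 higher with 15 arrays, 574 and 844 after quantile normalization, 27 and 215 with the replicate block, and 69 to 2780 and 430 to 3400 without single arrays. Genes beyond control (14 and 221) were 39 and 543 with 15 arrays, 42 and 477 with trend and robust moderation, 1 and 2 with the replicate block, 74 higher after quantile normalization and 101 lower after centring, and 4 to 91 and 49 to 854 without single arrays, with overlap judged on deposited values. The cause of these shifts was not tested.

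With the scrambled array as control, 27 of 214 named genes changed sign: IFIT1 0.13, IFIT2 0.11, IFIT3 0.09, RIGI 0.08, ADAR 0.14, EIF2AK2 0.37, WEE1 0.08, IGF1R 0.08, POLA1 0.09, ZMAT3 0.04, RRM2B 0.09, BBC3 -0.12, BCL2L11 0.00, RAB3B 0.17, CDH1 0.08, FN1 0.04, LRP6 0.03, ETV5 0.11, TET1 0.04, TET2 0.07, KLK3 -0.18, INSM1 -0.06, CD3E -0.10, SNORD21 0.02, SNORA16B 0.11, H2BC21 -0.21 and SAMD9 0.71. SAMD9 was 0.19 with the mean of the controls. Seed-site alternatives were not run.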
